A study of Mus musculus with 10 samples.

Results

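The genes described here are 10 genes of MHC class I antigen processing and presentation, chosen by name and found in 10 of 10 cases among the 14106 genes measured in brain endothelial cells (BECs). They are the class I heavy chain genes H2-K1 and H2-D1, the light chain gene B2m, the peptide transporter genes Tap1 and Tap2, the tapasin gene Tapbp, the immunoproteasome subunit genes Psmb8, Psmb9 and Psmb10, and the class I transactivator gene Nlrc5. RNA was sequenced from BECs of the cortex of female mice aged 1 year, in 10 libraries, of which 5 came from APP/PS1 mice and 5 from control mice of that age, WT in the labels. APP/PS1 mice (APPswe/PS1ΔE9) carry a chimeric mouse and human amyloid precursor protein with the Swedish mutation and a mutant human presenilin 1, and they deposit Aβ in the brain. The paper describes expression of the transgenes as ubiquitous, and both groups were kept on a C3H/BL6 background. BECs, described in the paper as CD31+CD45- cells, were enriched with CD31 microbeads after myelin removal. Their purity was assessed by flow cytometry for CD31 and CD45. The sources used here do not say if mice were pooled for a library.

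MHC class I molecules show short peptides from a cell's own proteins to CD8+ T cells. The peptides are cut by the proteasome, whose immunoproteasome form has Psmb8, Psmb9 and Psmb10 in place of the standard catalytic subunits, pumped into the endoplasmic reticulum by the Tap1 and Tap2 transporter, and loaded with the help of tapasin onto a heavy chain bound to B2m. Type I and type II interferons raise the transcription of most of these genes, and Nlrc5 acts on the promoters of the class I genes. Brain endothelium carries class I molecules on its surface, in reach of circulating CD8+ T cells.

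In the paper each batch joins a control library with the APP/PS1 library of the same number, which gave 5 pairs, and the difference between genotypes was taken within pairs. The sample labels put pairs 4 and 5 in 1 batch. The values are log2 CPM, counts scaled to library size on a log2 scale, after the authors' batch correction, which set the mean of each pair equal. The 2 libraries of a pair are therefore mirror images, and a high APP/PS1 library comes with a low control library. Library totals of adjusted counts ranged from 22371766 to 126686149, with the lowest totals in both libraries of pair 1. The libraries carried the marks of endothelium: all 15 endothelial markers were measured, with a median level of 10.66 log2 CPM and summed levels of 36300 to 38100 CPM in control and 36900 to 38600 CPM in APP/PS1 libraries. Markers of mural cells were on average lower in APP/PS1 libraries in 9 of 9 genes, and 8 of them had an unadjusted p under 0.05. Their summed level was 291 to 561 CPM against 589 to 981 CPM. Markers of astrocytes were on average lower in 7 of 8 and of oligodendrocytes in 7 of 7 genes, with an unadjusted p under 0.05 in 3 of each. Among all genes 8.03% had such a p, and 0 of these markers had an adjusted p under 0.05. The direction did not hold in every pair. In pair 5, 6 of 9 mural markers were higher in the APP/PS1 library. In pair 2, 6 of 8 astrocyte and 5 of 7 oligodendrocyte markers were higher. In bulk RNA, fewer cells of a type and less RNA per cell cannot be told apart.

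The stretch before the start of H2-K1, H2-D1 and B2m is where interferon and Nlrc5 are known to act, so the 250 bases before each RefSeq start site are shown (GRCm38.p6, read 5′ to 3′ on the strand of the gene). They lie at chr17:34000348-34000597 on the minus strand, chr17:35262844-35263093 on the plus strand and chr2:122147437-122147686 on the plus strand. The GENCODE annotation, used for gene coordinates below, starts H2-D1 at chr17:35262730, so the H2-D1 window lies inside that gene model. Distances given here are to the RefSeq start. Capitals mark matches to 3 patterns searched in these windows, which were picked after the values of these genes had been seen. The patterns were GGGATTCCC, a form of the NF-κB site, AANNGAAA on either strand, the core of an interferon response element, and TGACG followed 20 to 30 bases on by ATTGG, as in the X2 and Y boxes of class I promoters.
H2-K1: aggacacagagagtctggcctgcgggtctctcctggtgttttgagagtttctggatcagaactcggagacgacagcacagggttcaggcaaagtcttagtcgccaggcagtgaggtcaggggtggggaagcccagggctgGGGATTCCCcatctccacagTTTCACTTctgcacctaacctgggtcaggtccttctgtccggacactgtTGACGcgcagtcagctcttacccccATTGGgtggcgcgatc
H2-D1: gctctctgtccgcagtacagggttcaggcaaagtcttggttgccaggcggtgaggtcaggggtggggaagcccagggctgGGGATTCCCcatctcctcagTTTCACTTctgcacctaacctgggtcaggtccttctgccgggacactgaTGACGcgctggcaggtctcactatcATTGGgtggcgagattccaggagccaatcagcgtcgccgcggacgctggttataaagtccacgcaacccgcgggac
B2m: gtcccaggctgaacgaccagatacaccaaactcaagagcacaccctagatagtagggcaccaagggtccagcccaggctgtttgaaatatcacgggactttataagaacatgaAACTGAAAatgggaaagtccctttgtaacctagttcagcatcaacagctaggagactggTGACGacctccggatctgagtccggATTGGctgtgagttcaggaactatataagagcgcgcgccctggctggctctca
All 3 windows held TGACG and ATTGG with the same spacing of 25 bases, a combination found in 0.381% of the 32851 windows of this length. AANNGAAA stood in all 3 windows as well, 90, 150 and 137 bases before the start, but it was also found in 21.3% of all windows. GGGATTCCC stood 110 bases before the start of H2-K1 and 170 bases before that of H2-D1, and in 0.301% of all windows. H2-K1 and H2-D1 had the same base at 166 of 188 aligned positions of these windows (88.3%). The RefSeq table held 8 of the 10 genes, and in Tapbp, Tap1, Psmb8, Psmb9 and Psmb10 these patterns were not found in the window, which says nothing of the factors that act there.

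BECs expressed the class I genes at high levels. In log2 CPM averaged over the 10 libraries, B2m stood at the 98.8th, H2-D1 at the 98.7th, H2-K1 at the 98.0th and Tapbp at the 96.0th percentile of all genes. Between genes, levels were compared per kilobase of exon, with the exons of all annotated transcripts of a gene joined. On this scale B2m led with 9.66 log2 CPM per kilobase, ahead of H2-D1 with 8.03, H2-K1 with 7.38 and Tapbp with 6.36. The immunoproteasome gene Psmb10 and the transporter gene Tap2 followed at 5.07 and 5.05, a gap below the spread between libraries, then Psmb8 at 3.99, Tap1 at 3.10 and Psmb9 at 2.82. The joined exons held 860 bases for B2m, 3381 for Psmb8, 3660 for Psmb9 and 5476 for Tap1. This length can exceed that of the transcript expressed, so the order of genes on this scale depends on it and is uncertain. Nlrc5, the regulator, was lowest at 0.74, although its lowest library still held 287 adjusted counts. Reads of H2-K1, H2-D1 and the related H2-Q and H2-T genes can be shared or lost between near-identical copies, and the C3H form of this region differs from the reference genome, so the split of counts among them is uncertain.

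**Figure D1:**
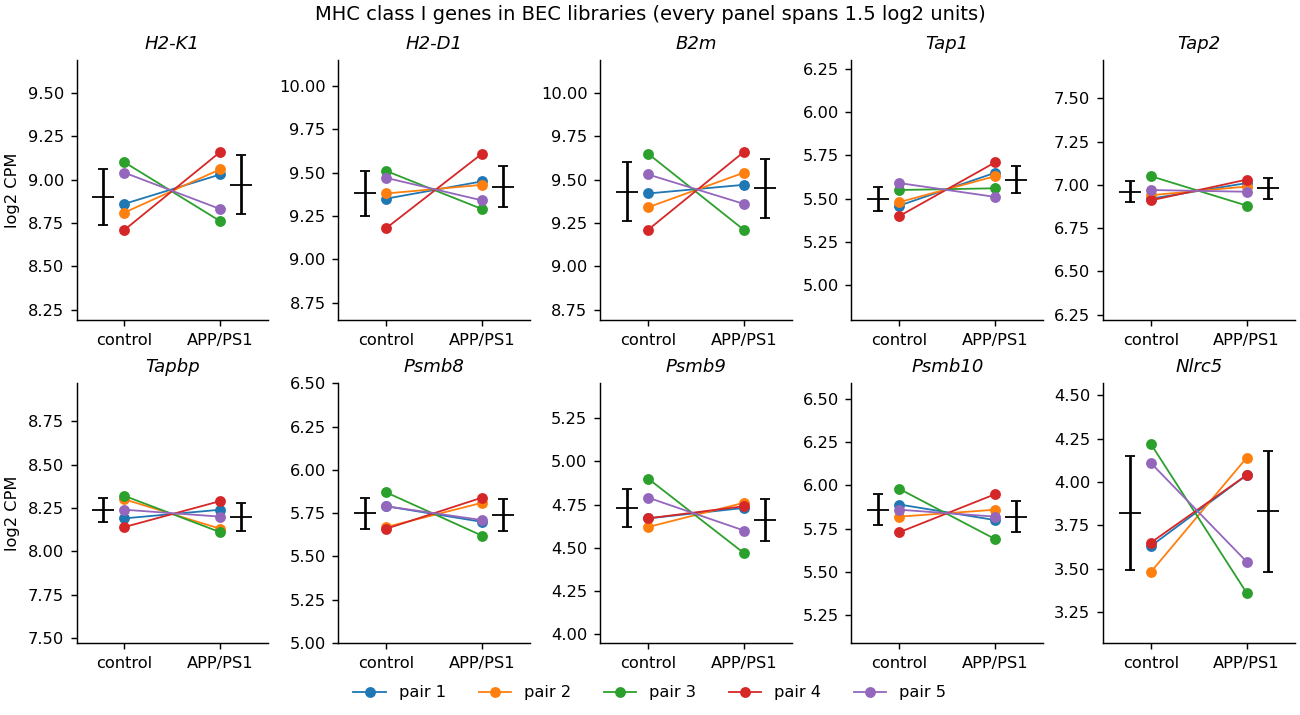
Level of each of the 10 genes in log2 CPM (y axis, each panel spanning 1.5 log2 units) in the 5 control and 5 APP/PS1 libraries, with a line joining the 2 libraries of a pair and bars for the mean ± SD of each group. In every panel the groups overlap, and pairs 3 and 4 slope in opposite directions in all genes but Tap1, where pair 3 is almost level.

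None of the 10 genes passed the test for a difference between genotypes. With limma's moderated test on pairs and Benjamini-Hochberg adjustment over 14106 genes, 0 of 10 had an adjusted p under 0.05, and 0 of 10 had an unadjusted p under 0.05. Among all genes these shares were 0.0% and 8.03%. The log2 fold changes, APP/PS1 minus control, ran from −0.07 for Psmb9 to 0.11 for Tap1, with a median of 0.012 beside −0.00377 over all genes. Of the 10 genes, 6 were on average higher in APP/PS1 libraries and 4 lower, but 0 of 10 were higher in every pair and 0 of 10 lower in every pair, beside 2.99% and 5.0% of all genes. The libraries of the 2 groups overlapped for all 10 genes, while 7.88% of all genes had groups that did not overlap. With the pair means set equal, this nearly repeats the count over pairs and is no separate evidence. The average direction rested on single pairs: without pair 3, 9 of 10 genes were higher and their median log2 fold change was 0.087, and without pair 4 it was 1 of 10 and −0.078.

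The class I molecule itself is built from the heavy chains of H2-K1 or H2-D1 and the light chain B2m. H2-K1 (chr17:33996017-34000347, minus strand) had levels of 8.86, 8.81, 9.10, 8.71 and 9.04 log2 CPM in control libraries 1 to 5 and of 9.03, 9.06, 8.76, 9.16 and 8.83 log2 CPM in APP/PS1 libraries 1 to 5. Its highest and lowest libraries were APP/PS1 and control of pair 4, and control library 3 stood almost as high as the first of them. The means were 8.90 ± 0.16 in control and 8.97 ± 0.17 log2 CPM in APP/PS1 libraries (SD over 5 libraries each). The log2 fold change was 0.06 with a 95% interval of −0.25 to 0.38 (limma adjusted p = 0.93). H2-D1 (chr17:35262730-35267499, plus strand) stood at 9.35, 9.38, 9.51, 9.18 and 9.47 log2 CPM in the control libraries and at 9.45, 9.43, 9.29, 9.61 and 9.34 log2 CPM in the APP/PS1 libraries. Pair 4 again held both extremes. The log2 fold change of H2-D1 was 0.04 with an interval of −0.20 to 0.29 (limma adjusted p = 0.939). B2m (chr2:122147686-122153083, plus strand), which lies on another chromosome, had 9.42, 9.34, 9.65, 9.21 and 9.53 log2 CPM in control and 9.47, 9.54, 9.21, 9.66 and 9.36 log2 CPM in APP/PS1 libraries. Control library 3 and APP/PS1 library 4 were almost equal at the top, and the other library of each of these pairs was at the bottom. Its log2 fold change was 0.02 with an interval of −0.31 to 0.34 (limma adjusted p = 0.983). For these 3 genes the intervals exclude an average difference beyond 0.38 log2 units in either direction. Together the 3 genes made up 1650 to 2130 CPM in control and 1610 to 2090 CPM in APP/PS1 libraries.

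The genes of peptide transport and loading varied less. Tap1 (chr17:34187553-34197225, plus strand), one chain of the transporter, had 5.46, 5.48, 5.55, 5.40 and 5.59 log2 CPM in control and 5.65, 5.63, 5.56, 5.71 and 5.51 log2 CPM in APP/PS1 libraries. It was the gene nearest to a difference, higher in APP/PS1 libraries in 4 of 5 pairs, with 0.01 in pair 3 and −0.08 in pair 5. Its log2 fold change of 0.11, with a 95% interval of −0.05 to 0.28, did not pass the test (limma adjusted p = 0.781). Tap2 (chr17:34203527-34216321, plus strand), the other chain, had 6.92, 6.94, 7.05, 6.91 and 6.97 log2 CPM in control and 7.01, 6.99, 6.88, 7.03 and 6.96 log2 CPM in APP/PS1 libraries. All 10 values lay close together, and the log2 fold change was 0.02 with an interval of −0.13 to 0.16. Tapbp (chr17:33915899-33929292, plus strand), whose product tapasin holds the empty class I molecule at the transporter, had 8.19, 8.30, 8.32, 8.14 and 8.24 log2 CPM in control and 8.24, 8.13, 8.11, 8.29 and 8.20 log2 CPM in APP/PS1 libraries. Its log2 fold change was −0.04 with an interval of −0.21 to 0.13, higher in 2 of 5 pairs. Tapbp overlaps Zbtb22 by 3422 bases on the same strand (4.87 log2 CPM), so some of its reads could belong to that gene.

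All 3 immunoproteasome genes were slightly lower on average, each within the spread. Psmb8 (chr17:34197721-34201454, plus strand) had 5.79, 5.67, 5.87, 5.66 and 5.79 log2 CPM in control and 5.70, 5.81, 5.62, 5.84 and 5.71 log2 CPM in APP/PS1 libraries. Psmb9 (chr17:34181987-34187764, minus strand) had 4.67, 4.62, 4.90, 4.67 and 4.79 log2 CPM in control and 4.73, 4.76, 4.47, 4.74 and 4.60 log2 CPM in APP/PS1 libraries. For Psmb9 the control library of pair 3 was the highest and the APP/PS1 library of pair 3 the lowest of 10. Psmb10 (chr8:105935735-105938444, minus strand) had 5.89, 5.82, 5.98, 5.73 and 5.86 log2 CPM in control and 5.80, 5.86, 5.69, 5.95 and 5.82 log2 CPM in APP/PS1 libraries. The log2 fold changes were −0.02 for Psmb8, −0.07 for Psmb9 and −0.03 for Psmb10, with 95% intervals of −0.21 to 0.17, −0.31 to 0.16 and −0.23 to 0.16. Tap1 and Psmb9 lie on opposite strands, with 225 bases between their RefSeq start sites, while in the GENCODE annotation they overlap by 212 bases. Whether counting used the strand is not stated in the sources used here. Even so, Tap1 and Psmb9 had the highest and the lowest log2 fold change of the 10 genes.

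Nlrc5 (chr8:94434356-94527272, plus strand) varied most. It had 3.63, 3.48, 4.22, 3.65 and 4.11 log2 CPM in control and 4.04, 4.14, 3.36, 4.04 and 3.54 log2 CPM in APP/PS1 libraries. Control libraries 3 and 5 and APP/PS1 libraries 1, 2 and 4 had 4.04 to 4.22 log2 CPM, and the other 5 had 3.36 to 3.65 log2 CPM. As the libraries of a pair are mirror images, the split in 1 group follows from that in the other. The group means were nearly equal, 3.82 ± 0.33 in control and 3.83 ± 0.35 log2 CPM in APP/PS1 libraries (SD over 5 libraries each). The log2 fold change was 0.01 with an interval of −0.62 to 0.63 (limma adjusted p = 0.997), so an average difference of up to 0.63 log2 units could not be told from none for this gene.

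**Figure D2:**
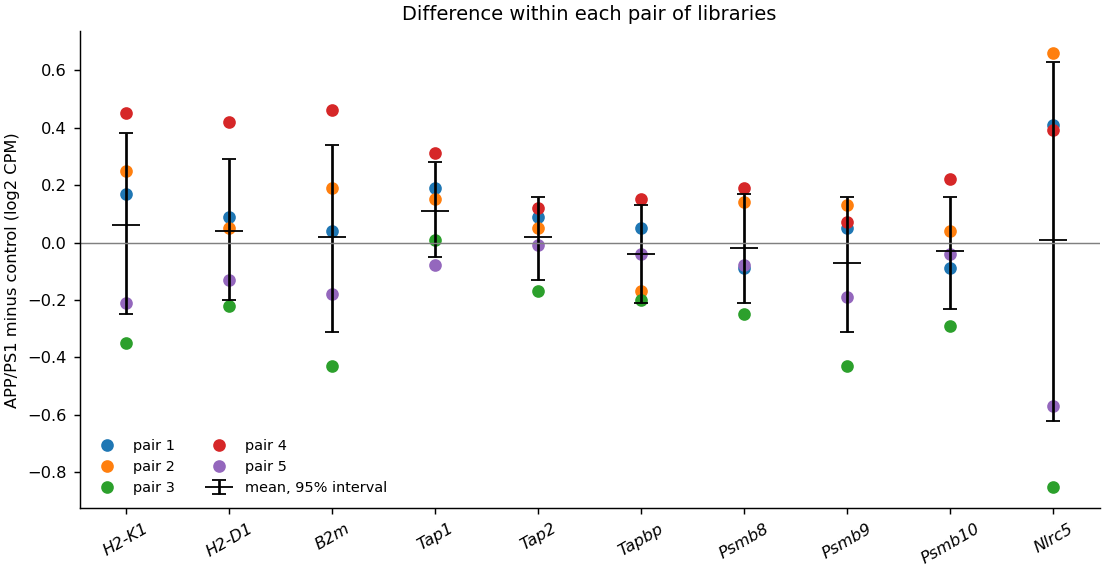
APP/PS1 minus control difference in log2 CPM (y axis) for each of the 10 genes (x axis), with a point for each pair and bars for the mean and its 95% interval. All 10 intervals cover 0, pair 4 lies above 0 for every gene, and pair 5 lies below 0 for every gene.

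Although the averages were near 0, most of the 10 genes took the same side within a pair, and all 10 did in pairs 4 and 5. In pair 4, 10 of 10 genes were higher in the APP/PS1 library, beside 48.9% of all genes, with a median difference of 0.261 log2 units. Pair 2 followed with 9 of 10, beside 50.3%, and a median of 0.136, and pair 1 with 8 of 10, beside 49.1%, and a median of 0.073. In pair 3 only Tap1 was higher, 1 of 10 beside 48.4% of all genes, with a median of −0.266. In pair 5 the count was 0 of 10, beside 47.8%, with a median of −0.103. Pairs 1, 2 and 4 thus stood against pairs 3 and 5. H2-K1, for example, had differences of 0.17, 0.25, −0.35, 0.45 and −0.21 log2 units in pairs 1 to 5, and Nlrc5 had 0.41, 0.66, −0.85, 0.39 and −0.57. The signs of H2-K1 over the 5 pairs were taken as the reference, which H2-K1 itself meets by definition. H2-D1, B2m, Tap2, Psmb9 and Nlrc5 had the same signs, which made 6 of 10 with H2-K1. For Tap2 the difference in pair 5 was only −0.01. Among all genes 310 had these signs (2.2%), the members included. Because of the mirror images these are 5 differences and not 10 independent values, and no test was made of the shared pattern.

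The size of the swing differed among the genes. The SD of the 5 pair differences was 0.673 log2 units for Nlrc5, percentile 93.4 among all genes, 0.341 for B2m (percentile 79.4), 0.331 for H2-K1 (percentile 78.4), 0.248 for H2-D1 and 0.235 for Psmb9. It was lowest for Tap2 at 0.115, percentile 28.1. The 10873 genes with a mean of at least 2 log2 CPM had a median SD of 0.143 and a 90th percentile of 0.326, so among these better expressed genes B2m and H2-K1 were just past the 90th percentile. In the Q region, the non-classical genes H2-Q5, H2-Q6 and H2-Q7 swung wider still, and H2-Q4, with an SD of 0.26, did not. H2-Q6 differed by 0.55, 0.66, −1.31, 1.24 and −0.86 log2 units in pairs 1 to 5, with levels of 4.07, 4.00, 4.89, 3.62 and 4.75 log2 CPM in control and 4.61, 4.66, 3.58, 4.86 and 3.89 log2 CPM in APP/PS1 libraries. These are the signs of H2-K1 at several times the size. H2-Q7, named after its values were seen, differed by 0.31, 0.68, −1.47, 1.11 and −0.90, and H2-Q5, a polymorphic pseudogene, by 0.44, 0.28, −0.91, 0.95 and −0.41. Of the genes that are not members and had a mean of at least 2 log2 CPM, those most like the mean of the standardized members over the 10 libraries were B9d2 (Pearson r = 0.995), H2-Q5 (0.985), Amigo2 (0.979), H2-Q6 (0.977) and Wrap73 (0.975). These r values describe 5 differences and were picked as the highest of many genes. Of the members, B2m followed this mean best (r = 0.992), and Tap1 (0.689) and Tapbp (0.672) least. Each member is itself part of the mean, which raises its r, so these values cannot be compared with those of the other genes.

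**Figure D3:**
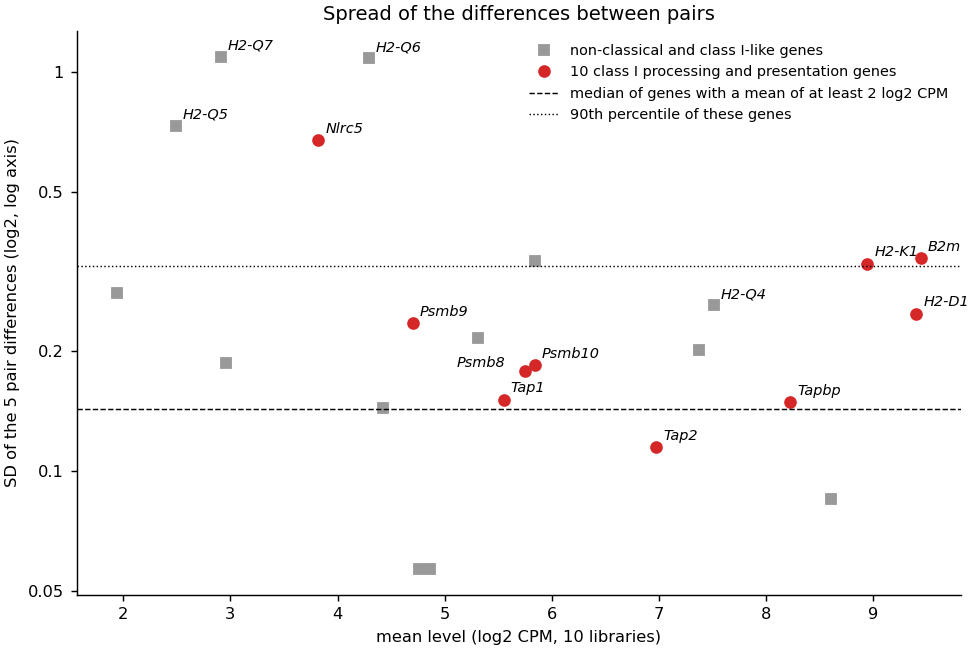
SD of the 5 pair differences in log2 units (y axis, log scale) against mean level in log2 CPM (x axis) for the 10 genes (red circles) and 13 non-classical and class I-like genes (grey squares). The dashed and dotted lines are the median (0.143) and 90th percentile (0.326) of the 10873 genes with a mean of at least 2 log2 CPM, and Nlrc5, H2-Q5, H2-Q6 and H2-Q7 lie far above them.

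The other genes of the pathway had small differences too. Over 4 lists, 42 genes were measured. In APP/PS1 libraries 24 of them were higher and 18 lower, their median log2 fold change was 0.021, and 0 had an adjusted p under 0.05. Only 2 of the 42 had an unadjusted p under 0.05, beside 8.03% of all genes. Both were class I-like genes and lower, Mr1, which presents vitamin B metabolites to MAIT cells, with −0.15 (limma adjusted p = 0.563), and Hfe, a regulator of iron uptake, with −0.12 (limma adjusted p = 0.594). Mr1 had 4.90 to 4.98 log2 CPM in control and 4.74 to 4.82 log2 CPM in APP/PS1 libraries, and it was lower in 5 of 5 pairs, as Hfe was. So was Fcgrt, named after its values were seen, which made 3 of the 13 class I-like genes measured, beside 5.0% of all genes. Neither Mr1 nor Hfe presents peptides to CD8+ T cells in the classical way, and neither took the signs of H2-K1. Among the 13 non-classical and class I-like genes measured, 5 were higher and 8 lower. H2-Q4 and H2-Q5 had the highest log2 fold change of those above 2 log2 CPM, 0.07 for each. The 11 genes of the loading complex and of peptide trimming, 8 higher and 3 lower, ran from −0.08 for Thop1, a cytosolic peptidase, to 0.07 for Calr, a chaperone of the loading complex. The 8 standard catalytic subunits and proteasome activators, 3 higher and 5 lower, ran from −0.08 for Psmb5, the subunit that Psmb8 replaces, to 0.11 for Psme4, an activator. The 10 class I regulators, 8 higher and 2 lower, ran from −0.09 for Rfx5, which binds class I promoters with Nlrc5, to 0.17 for Irf1, an interferon-induced activator of class I transcription. Irf1 had 8.69, 8.77, 8.67, 8.49 and 8.60 log2 CPM in control and 8.78, 8.69, 8.80, 8.97 and 8.87 log2 CPM in APP/PS1 libraries. It was higher in APP/PS1 libraries in 4 of 5 pairs, pairs 3 and 5 included, but did not pass the test (limma adjusted p = 0.726).

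The signs of H2-K1 were shared by few genes of neighbouring groups. None of the 11 other subunits of the 20S proteasome core, the 10 regulators or the 15 endothelial markers had them in every pair, against H2-Q5, H2-Q6, H2-Q7 and H2-K2 of the 13 class I-like genes and Tapbpl of the 11 loading and trimming genes. The other core subunits had a median log2 fold change of −0.022, from −0.06 for Psma4 to 0.03 for Psma1. A second group of interferon-induced genes was chosen after their values were seen: Ifit1, Ifit2, Ifit3, Ifit3b, Rsad2, Cmpk2 and Ifi44. On average 7 of 7 were higher in APP/PS1 libraries, and 6 of them in every pair, beside 2.99% of all genes. Their median differences were 0.491, 0.324, 0.318, 0.246 and 0.208 log2 units in pairs 1 to 5. In pairs 3 and 5 these medians lay above 0, while those of the class I genes lay below 0. In this group 5 of 7 genes had an unadjusted p under 0.05, beside 8.03% of all genes, and 0 an adjusted p under 0.05. As the group was chosen by its values, these counts are no evidence of a difference. The difference between the 2 groups of genes was not tested.

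Markers of microglia and macrophages moved with the class I genes from pair to pair. Of 18 such markers 11 were measured, with a median level of 0.38 log2 CPM and a summed level of 59.6 to 74.2 CPM in control and 54.1 to 67.7 CPM in APP/PS1 libraries. Their median differences were 1.043, 0.248, −0.73, 0.113 and −0.66 log2 units in pairs 1 to 5, with the sign of H2-K1 each time, and Cx3cr1, Csf1r, C1qb and Fcrls, 4 of the 11 markers, had these signs as single genes. The sizes did not go together in every pair: in pair 1 the markers had their largest and the class I genes their smallest median difference, and in pair 4 the markers had their smallest. The summed level of these markers was far below that of H2-K1, H2-D1 and B2m (1610 to 2130 CPM), and their part in the pattern was not tested. Class II genes, which mark antigen-presenting cells, were measured for 5 of 10 and had a median level of 0.71 log2 CPM. Cd74, the class II chaperone, named after its values were seen, differed by 2.08, −0.60, −0.53, 1.11 and −3.36 log2 units, with a sign other than that of H2-K1 in pair 2. Markers of lymphocytes were measured for 4 of 12, with summed levels of 2.66 to 6.02 CPM in control and 1.59 to 3.76 CPM in APP/PS1 libraries.

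**Figure D4:**
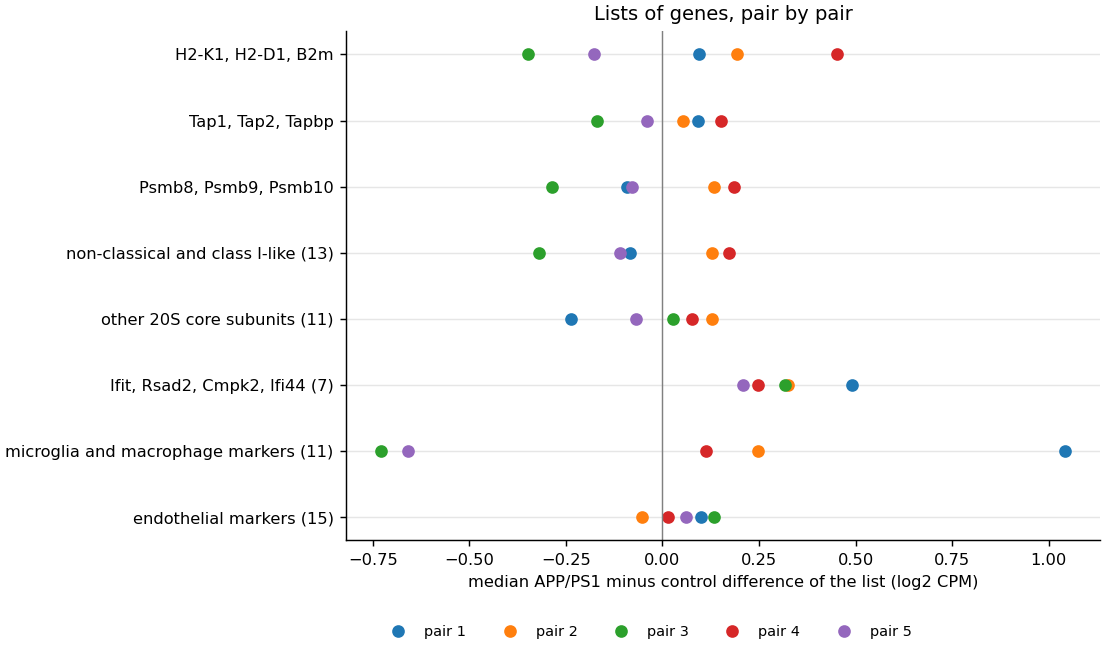
Median APP/PS1 minus control difference in log2 CPM (x axis) of 8 groups of genes (y axis, number of genes in brackets), with a point for each pair. The class I groups and the microglia and macrophage markers have pairs 3 and 5 below 0, while the Ifit group has all 5 pairs above 0, from 0.208 to 0.491.

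Of the 10 genes, 7 lie in the MHC on chromosome 17, within chr17:33915899-35267499, and 3 elsewhere. The 64 other measured genes of this span were higher in APP/PS1 libraries in 31 cases. The median of their log2 fold changes was −0.003, and 3 of them had the signs of H2-K1 in every pair, beside 2.2% of all genes. The span ends with H2-D1 and leaves out the measured H2-Q and H2-T genes and H2-M3, which lie past it. Of these, H2-Q5, H2-Q6 and H2-Q7 had the signs of H2-K1 in every pair, and the others of the class I-like list did not. Of the 3 members away from the MHC, B2m on chromosome 2 and Nlrc5 on chromosome 8 had these signs, and Psmb10 on chromosome 8 did not.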

How the data were processed

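RNA-seq of 5 control and 5 APP/PS1 BEC libraries was analysed. According to the methods, reads were aligned by the authors to mm10 with STAR, counted with HTSeq-count, filtered with filterByExpr, taken to log CPM with edgeR and corrected for batch with ComBat. Tool versions are not given in the sources used here. They deposited log2 CPM of 14106 genes, as 1 table and as 10 library files, which equalled their columns. Symbols came from GENCODE M21 (14106 of 14106 matched). All values (100%) converted to whole adjusted counts (tolerance 0.01) with a prior count of 3, which a correction of log values would not leave, so the order of the authors' steps is uncertain. Adjusted counts are not reads, and no counting error was taken from them.

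Genotype and the 5 replicate numbers were fitted with lmFit and eBayes of limma 3.58.1 (R 4.3.3), with Benjamini-Hochberg adjustment over 14106 genes and a threshold of 0.05. The labels give 4 batches, with replicates 4 and 5 in 1 batch, whereas the paper shows 5. In the values, deviations of the 2 libraries of a pair had rank correlations of −0.999 to −0.989, as the correction forces when pair means are set equal, so the replicate number was kept as a block. The p-values rest on the spread of the 5 pair differences, moderated over genes by eBayes. As separate animals are not stated, this is a spread between pairs of libraries and not between known animals. The fit was tested on simulated data.

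The 10 genes, the gene lists and the markers were chosen with earlier results of these data known. Named from each list were the genes with the largest and smallest log2 fold change at a mean of at least 2 log2 CPM, and those with an unadjusted p under 0.05. Also named were the 5 genes most like the members, with the same minimum level, and genes next to them, while genes named outside this rule are marked as such. Alternatives were no block, the 4 label batches, a trend, voom, a prior count of 0.125, 2 other scalings, a mean of at least 1 log2 CPM, a threshold of 0.10 and each pair left out. Motifs were searched with Python 3.11.15, and windows were aligned with Biopython 1.88.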

Additional observations from a re-analysis of the deposited data

How the results depend on the processing

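No member had an adjusted p under 0.05 in any alternative run, and the smallest was 0.195, for Tap1 without the replicate block. That fit leaves the batch-corrected values without a batch term and called 648 of all genes, beside 0 with the block. It gave an unadjusted p under 0.05 to 1 member (Tap1) and to 9 other pathway genes, beside 0 and 2 with the block. With the 4 label batches as the block, 1 of all genes passed and 0 members. With a threshold of 0.10, 4 other pathway genes passed it unadjusted. With each pair left out in turn, between 1 and 3 other pathway genes had an unadjusted p under 0.05, and between 0 and 1 members were higher in every remaining pair (Tap1, without replicate 5). All genes called numbered 5 without replicate 2 and 1 without replicate 5.

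The direction of the members on average was not stable. Their median log2 fold change ran from −0.078 without replicate 4 to 0.087 without replicate 3, with the other pairs left out in turn giving values between these. Library size as the only scaling gave −0.025 with 3 of 10 genes higher, where the median of all genes moved to −0.0409. H2-K1 ran from −0.03 to 0.17, Nlrc5 from −0.16 to 0.22 and Tap1 from 0.07 to 0.16 over the pairs left out. Values for H2-K1, H2-D1 and the H2-Q genes rest on reads that related copies may share, which was not tested.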
